A study of Homo sapiens with 16 samples.

Results

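The enzymes that turn farnesyl diphosphate into squalene and squalene into cholesterol were followed in HepG2 cells given a trans, a cis or a saturated fatty acid. HepG2 is an established human liver tumour cell line. The members were chosen as all probes whose gene symbol in the array's annotation was FDFT1, SQLE, CYP51A1, TM7SF2, SC4MOL (now MSMO1), NSDHL, HSD17B7, EBP, SC5DL (now SC5D) or DHCR7. This gave 11 probes for the 10 genes, out of 30968 probes on the array and 15240 distinct symbols. CYP51A1 had 2 probes, each of the other genes had 1, and no member was without a probe. All 11 probes passed the filter on low values, which kept 22939 probes with an intensity above 0 in all 16 samples.

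The 16 samples form 4 groups of 4 biological replicates, per the labels. Control cells received no fatty acid, and the other groups received oleic acid, elaidic acid or stearic acid at 100 µM for 7 days. All 4 groups were kept in medium without serum. Oleic and elaidic acid are the cis and trans isomers of the same monounsaturated fatty acid, and stearic acid is the saturated acid of the same chain length. Each RNA extract was run on 2 technical arrays with 1 dye, and 1 value per sample was deposited. All groups are of 1 cell line, and nothing in the labels says whether the replicate cultures were grown on separate days, so p-values measure the spread between these cultures.

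Cholesterol is made in the endoplasmic reticulum from mevalonate by way of isoprenoids. Squalene synthase joins isoprenoid units into squalene, squalene epoxidase oxidises it, and the ring-closed product lanosterol is then demethylated, reduced and isomerised to cholesterol. The genes of this route are textbook targets of the transcription factor SREBP-2, which is released from the membrane when its sterol content is low.

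Array medians ran from 19.95 to 76.1 in deposited intensity units, and the 2 dimmest arrays were control replicate 1 and oleic replicate 4. Numbers given to the arrays by the submitters form 2 ranges, named slide series A and slide series B below; what the ranges stand for, such as a printing or a scan, is not given in the sources used here. The control and oleic acid groups were run wholly on A, the stearic acid group wholly on B. Elaidic acid was split, with replicates 2 and 4 on A and replicates 1 and 3 on B. Stearic acid and series B therefore cannot be told apart against control or oleic acid without the 4 elaidic acid samples, which span both. For that reason each comparison is given also with slide series as a block. The text gives these values for some members and the figures for all 11 probes. In the block fit the elaidic acid samples alone measure the difference between series. As a check of the cell type, the median intensity over samples was read for 9 hepatocyte markers, from the brighter probe where there were 2. It ran from 457 for AHSG to 27699 for APOA1. Single samples were as low as 75.96 for TF and, over both of its probes, 77.8 for TTR. Of 12 markers of other cells, COL3A1, KRT7, PECAM1, DCN, VWF and PTPRC had medians of 3.43 to 21.9, COL1A2, DES, COL1A1 and CDH5 of 64.1 to 366, and CD14 and KRT19, a bile duct keratin, of 1545 and 11953.

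The levels below are log2 intensities after quantile normalisation, in which a difference of 1 is a doubling. Since probes bind with different strength, levels of the enzymes are compared between samples for a probe and not between probes. Of the 10 genes (the brighter probe standing for CYP51A1), 7 had group means in the order elaidic, stearic, control, oleic acid, and 3 (FDFT1, SC4MOL and EBP) in the order stearic, elaidic, control, oleic acid. Oleic acid was the lowest group for all 10. Stearic acid samples lay wholly above control samples for 8 of 11 probes, against 18.7% of all probes tested. They lay wholly above oleic acid samples for 9 of 11, against 21.2%. Groups that do not overlap were thus common between stearic acid and these 2 groups, which are on different slide series.

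**Figure D1:**
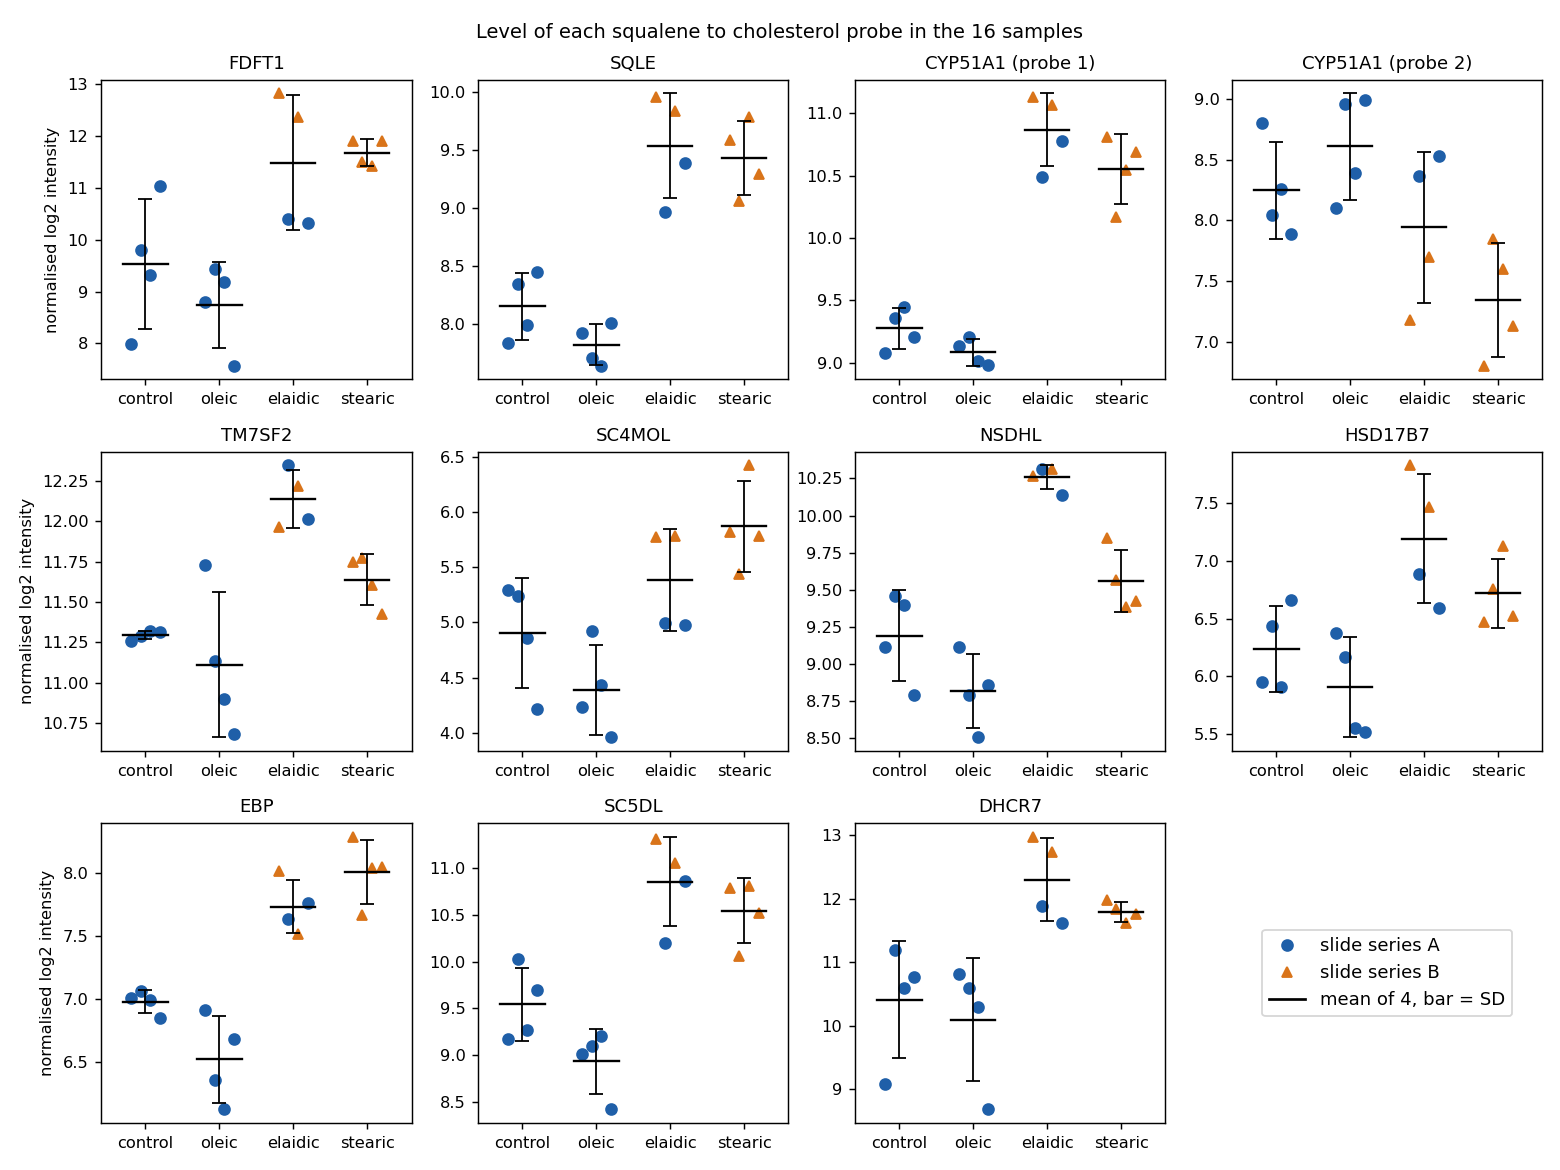
Normalised log2 intensity (vertical axis) of each of the 11 probes in the 16 samples, by group; circles are slide series A, triangles series B, lines are group means and bars the SD of 4 samples. Probe 1 of CYP51A1 is PH_hs_0033255 and probe 2 is PH_hs_0028379; elaidic and stearic acid samples lie above control and oleic acid samples for SQLE, CYP51A1 probe 1 and SC5DL, and probe 2 of CYP51A1 has its highest mean under oleic acid.

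FDFT1 encodes squalene synthase, the first enzyme committed to sterols. Its probe PH_hs_0032086 read 7.99, 9.81, 9.32 and 11.03 in control replicates 1 to 4, and 8.80, 9.43, 9.18 and 7.57 with oleic acid. It read 12.83, 10.41, 12.38 and 10.33 with elaidic acid, and 11.90, 11.50, 11.42 and 11.91 with stearic acid. The control samples overlapped those of elaidic acid, since control 4, from the brightest control array, exceeded elaidic replicates 2 and 4. The lowest control and oleic acid values came from the 2 dimmest arrays. FDFT1 varied more within groups than most probes, with a pooled SD of 1.0, above that of 90.4% of the probes tested.

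SQLE encodes squalene epoxidase, a rate-limiting oxygenase of the route. PH_hs_0004140 read 7.83, 8.34, 7.98 and 8.44 in controls and 7.92, 7.70, 7.64 and 8.01 with oleic acid. It read 9.96, 8.97, 9.84 and 9.39 with elaidic acid and 9.58, 9.06, 9.79 and 9.29 with stearic acid. Every elaidic and stearic acid sample was above every control and oleic acid sample.

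CYP51A1 encodes lanosterol 14-alpha-demethylase, the cytochrome P450 that starts the trimming of lanosterol. Probe PH_hs_0033255 read 9.08, 9.36, 9.45 and 9.21 in controls and 9.14, 9.21, 9.01 and 8.98 with oleic acid. It read 11.13, 10.49, 11.06 and 10.78 with elaidic acid and 10.81, 10.17, 10.54 and 10.69 with stearic acid, again without overlap. Its pooled SD of 0.22 was above that of only 4.12% of the probes tested, so it was among the steadier probes. The second probe, PH_hs_0028379, went the other way: its group means were 8.25 ± 0.40 (SD, n = 4) in controls, 8.61 ± 0.44 under oleic, 7.94 ± 0.62 under elaidic and 7.34 ± 0.47 under stearic acid. The array's annotation gives both the same symbol, so the 2 probes of this gene disagree, and which transcript each one binds was not tested.

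TM7SF2, a sterol C14 reductase, acts on the product of CYP51A1. Its probe PH_hs_0031133 read 11.26, 11.29, 11.32 and 11.32 in controls, 11.73, 11.14, 10.90 and 10.68 with oleic acid, 11.97, 12.35, 12.22 and 12.02 with elaidic acid and 11.75, 11.78, 11.61 and 11.43 with stearic acid. All elaidic acid samples were above all other samples, while oleic acid replicate 1 lay within the stearic acid range.

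SC4MOL, NSDHL and HSD17B7 encode the oxidase, the decarboxylating dehydrogenase and the keto reductase that remove the C4 methyl groups. SC4MOL (PH_hs_0028315) was dim, with deposited intensities of 10.05 to 112.6, and its group means were 4.90 ± 0.50 (SD, n = 4) in controls, 4.39 ± 0.41 under oleic, 5.38 ± 0.46 under elaidic and 5.87 ± 0.41 under stearic acid. Control and elaidic acid samples overlapped for this probe. NSDHL (PH_hs_0003695) read 9.12, 9.46, 9.40 and 8.79 in controls, 9.12, 8.79, 8.51 and 8.86 with oleic acid, 10.27, 10.31, 10.31 and 10.14 with elaidic acid and 9.85, 9.57, 9.39 and 9.43 with stearic acid. The 4 elaidic acid samples of NSDHL lay close together and above the other 12. HSD17B7 (PH_hs_0040570) read 5.95, 6.44, 5.91 and 6.66 in controls, 6.37, 6.17, 5.55 and 5.52 with oleic acid, 7.83, 6.89, 7.46 and 6.59 with elaidic acid and 6.47, 6.76, 7.13 and 6.52 with stearic acid. Its highest control exceeded the lowest elaidic acid sample.

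EBP, SC5DL and DHCR7 encode the isomerase, the desaturase and the reductase that move, add and remove double bonds at the end of the route. EBP (PH_hs_0022949) read 7.00, 7.06, 6.99 and 6.85 in controls, 6.91, 6.36, 6.12 and 6.68 with oleic acid, 8.01, 7.64, 7.52 and 7.76 with elaidic acid and 8.28, 7.66, 8.03 and 8.04 with stearic acid. SC5DL (PH_hs_0023499) read 9.17, 10.02, 9.27 and 9.70 in controls, 9.01, 9.09, 9.20 and 8.42 with oleic acid, 11.32, 10.20, 11.06 and 10.86 with elaidic acid and 10.79, 10.06, 10.81 and 10.53 with stearic acid. For both genes the elaidic and stearic acid samples were all above the control and oleic acid samples, with SC5DL's closest pair being stearic replicate 2 and control replicate 2. DHCR7 (PH_hs_0001117), which catalyses the last step to cholesterol in one branch of the route, read 9.08, 11.20, 10.59 and 10.76 in controls, 10.81, 10.60, 10.29 and 8.68 with oleic acid, 12.97, 11.88, 12.73 and 11.61 with elaidic acid and 11.98, 11.83, 11.61 and 11.75 with stearic acid. Here too the elaidic and stearic acid samples were above the others, and the lowest control and oleic acid values came from the 2 dimmest arrays.

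The promoter windows of 3 of these genes are shown as examples. All 3 passed the test between the isomers given next, and each window lies wholly before its gene. They are the 250 bases before the start, on GRCh38.p14 from RefSeq, 5′ to 3′ on the gene's strand. Capitals mark CCAAT or its reverse ATTGG, the core letters of the NF-Y motif. CYP51A1 also passed that test, but its window, which holds neither CCAAT nor ATTGG, is not shown.
NSDHL chrX:152830813-152831062 (+ strand): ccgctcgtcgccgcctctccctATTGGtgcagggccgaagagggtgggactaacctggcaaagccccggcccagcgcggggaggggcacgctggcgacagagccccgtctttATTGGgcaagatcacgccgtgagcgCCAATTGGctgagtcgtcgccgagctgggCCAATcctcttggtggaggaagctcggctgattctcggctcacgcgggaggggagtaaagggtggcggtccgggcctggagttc
EBP chrX:48521558-48521807 (+ strand): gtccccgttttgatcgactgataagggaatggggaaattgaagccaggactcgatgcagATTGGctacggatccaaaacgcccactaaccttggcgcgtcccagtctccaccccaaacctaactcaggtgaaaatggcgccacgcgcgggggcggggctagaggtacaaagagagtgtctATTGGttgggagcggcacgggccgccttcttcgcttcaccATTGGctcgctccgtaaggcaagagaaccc
SC5DL chr11:121292521-121292770 (+ strand): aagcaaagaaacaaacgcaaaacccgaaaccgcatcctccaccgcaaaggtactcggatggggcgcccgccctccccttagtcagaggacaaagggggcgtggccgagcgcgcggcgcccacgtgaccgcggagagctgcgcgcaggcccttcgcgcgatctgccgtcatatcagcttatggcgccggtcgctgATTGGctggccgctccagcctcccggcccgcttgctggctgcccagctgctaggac
RefSeq windows matched 8 of the 10 genes with 10 starts, and FDFT1 and SQLE had no entry. CCAAT on either strand was in 8 of the 10 windows, against 32% of 35116 human promoter windows of this length. The 2 windows of SC5DL overlap and hold the same ATTGG, so by gene CCAAT was found for 7 of 8. CCAAT occurred 5 times for NSDHL, where 1 CCAAT and 1 ATTGG overlap, 4 times for SC4MOL and 3 times for EBP, and it was absent from the CYP51A1 window. GGGCGG on either strand, the letters of the Sp1 motif, was in 8 windows against 42.6%. TCACNCCAC on either strand, one form of the sterol regulatory element, was in 0 of 10 windows against 0.883%, which says only that these letters are not in these windows.

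Whether the geometry of the double bond matters was addressed by elaidic against oleic acid, at the same dose and time. The trans acid gave higher levels of 5 probes by limma with Benjamini-Hochberg adjustment over all probes tested. Those were CYP51A1, SQLE, NSDHL, SC5DL and EBP. Over all probes, 0.318% passed in either direction and 0.301% passed as higher. CYP51A1 (PH_hs_0033255) was 3.44-fold higher, a log2 difference of 1.78 ± 0.21 (SE; 95% interval 1.34 to 2.23; adjusted p = 0.0032). SC5DL was 3.81-fold, SQLE 3.29-fold and NSDHL 2.71-fold higher, each with adjusted p = 0.015 in the limma fit, and EBP was 2.32-fold higher with adjusted p = 0.029.

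The other 5 genes did not pass the test between the isomers, though all had elaidic acid samples wholly above oleic acid samples. FDFT1 differed by 2.74 ± 0.65 (SE, log2; limma adjusted p = 0.097) and DHCR7 by 2.20 ± 0.49 (adjusted p = 0.078). TM7SF2 differed by 1.03 ± 0.22 (adjusted p = 0.069), HSD17B7 by 1.29 ± 0.31 (adjusted p = 0.099) and SC4MOL by 1.00 ± 0.32 (adjusted p = 0.17). The second CYP51A1 probe differed by -0.67 ± 0.34, with an interval of -1.39 to 0.06. In all, 10 of 11 probes had every elaidic acid sample above every oleic acid sample, against 4.07% of all probes. The median difference over the 10 genes was 1.58, beside -0.13 over all probes tested.

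With slide series as a block, 1 of the 11 probes passed between the isomers (background 0.0218%): CYP51A1, at 1.55 ± 0.23 (SE, log2; limma adjusted p = 0.036). SQLE then differed by 1.36 (adjusted p = 0.12), NSDHL by 1.41 (adjusted p = 0.10), SC5DL by 1.60 (adjusted p = 0.16) and EBP by 1.18 (adjusted p = 0.21), all 4 no longer passing. The remaining genes stood at 1.62 (FDFT1), 1.65 (DHCR7), 1.07 (TM7SF2), 0.83 (HSD17B7) and 0.60 (SC4MOL). The median over the 10 genes with the block was 1.38, beside 0.01 over all probes tested. Within series A, both elaidic acid samples were above all 4 oleic acid samples for 10 of 11 probes, against 6.29% of all probes, and above all 8 control and oleic acid samples for 7 of 11, against 3.09%. A limma fit on series A alone called no probe of the array, and CYP51A1 (PH_hs_0033255) there had adjusted p = 0.34. Leaving out oleic replicate 3, elaidic replicate 1 or elaidic replicate 3 left 1 call each among the members, while the calls over all probes went from 73 to 3, 3 and 7. Leaving out elaidic replicate 4 gave 8 member calls, with FDFT1, HSD17B7 and DHCR7 added, beside 175 over all probes. DHCR7 also passed without control replicate 1 and TM7SF2 without oleic replicate 1. EBP also fell out without control replicate 3, oleic replicate 2 or 4, or stearic replicate 3 or 4.

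**Figure D2:**
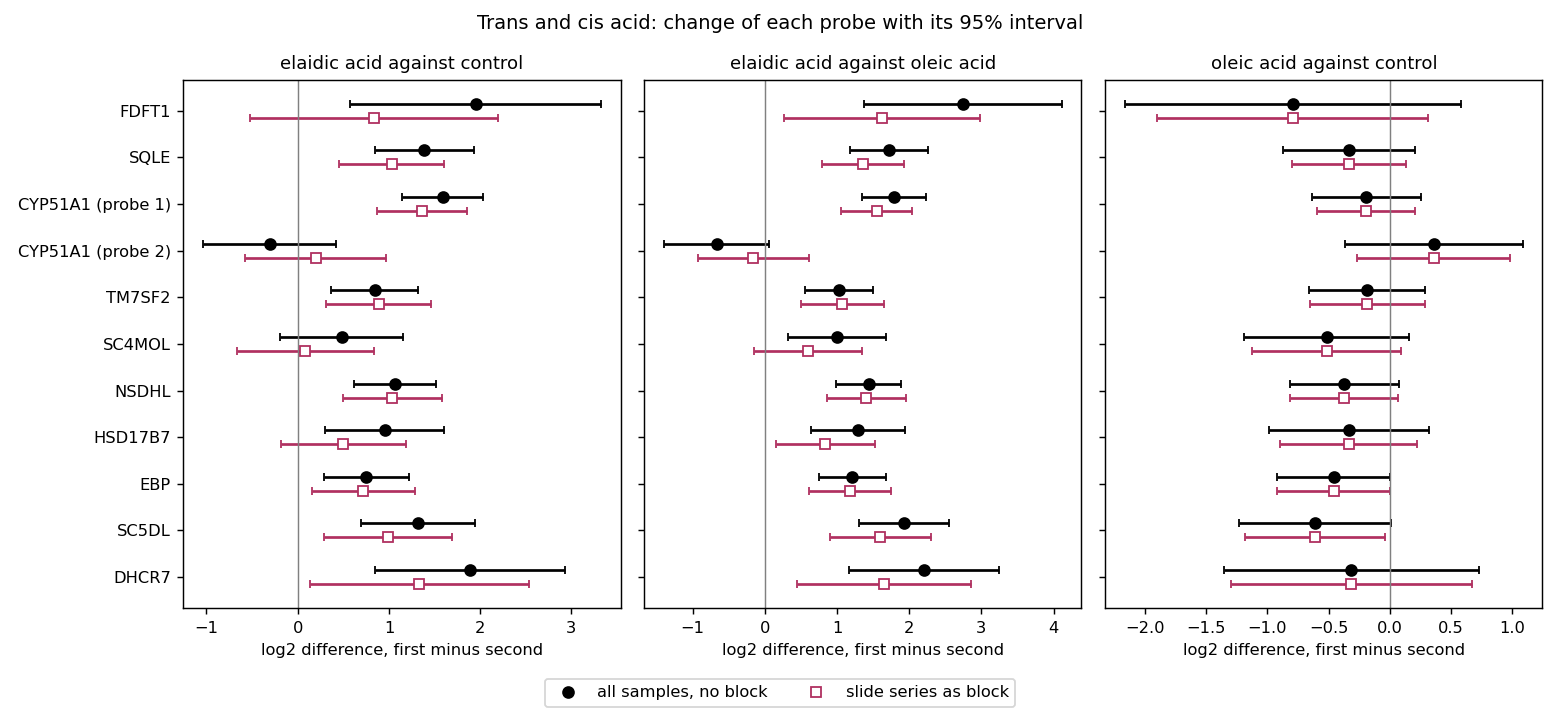
Log2 difference (horizontal axis) of each probe with its 95% interval for elaidic acid against control, elaidic against oleic acid and oleic acid against control; filled circles are all 16 samples without a block and open squares have slide series as a block. CYP51A1 probe 1 is PH_hs_0033255, at 1.59, 1.78 and -0.19 without the block; the intervals of oleic acid against control include 0 without the block.

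Against control, elaidic acid raised CYP51A1 (PH_hs_0033255) 3.01-fold, SQLE 2.62-fold and NSDHL 2.10-fold. These were 3 of 11 member probes called, all higher, where 0.323% of all probes passed and 0.305% passed as higher. The log2 change of CYP51A1 was 1.59 ± 0.21 (SE; 95% interval 1.15 to 2.04; limma adjusted p = 0.0038). It was 1.39 ± 0.26 for SQLE (0.85 to 1.93; adjusted p = 0.032) and 1.07 ± 0.21 for NSDHL (0.62 to 1.51; adjusted p = 0.042).

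Among the rest, SC5DL differed from control by 1.32 ± 0.29 (SE, log2; limma adjusted p = 0.078), DHCR7 by 1.89 ± 0.49 (adjusted p = 0.12), TM7SF2 by 0.84 ± 0.22 (adjusted p = 0.13) and EBP by 0.75 ± 0.22 (adjusted p = 0.16). None of these 4 genes passed, though their groups did not overlap. FDFT1 differed by 1.95 ± 0.65 (adjusted p = 0.21), HSD17B7 by 0.95 ± 0.31 (adjusted p = 0.20) and SC4MOL by 0.48 ± 0.32 (adjusted p = 0.48), with overlapping groups. The second CYP51A1 probe differed by -0.31 ± 0.34. The 4 elaidic acid samples lay wholly above the controls for 7 of 11 probes, against 3.82% of all probes, and the median over the 10 genes was 1.19 beside -0.10 over all probes.

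With slide series as a block no member passed against control (0 of 11; background 0.0392%; 7 of 11 at an unadjusted p under 0.05, background 6.53%). CYP51A1 then stood at 1.36 ± 0.23 (SE, log2; limma adjusted p = 0.058), SQLE at 1.03 ± 0.27 (adjusted p = 0.27) and NSDHL at 1.03 ± 0.25 (adjusted p = 0.23). FDFT1 moved most, from 1.95 to 0.83, and SC4MOL went from 0.48 to 0.08. DHCR7 stood at 1.33, SC5DL at 0.99, TM7SF2 at 0.89, EBP at 0.72 and HSD17B7 at 0.50. The median over the 10 genes with the block was 0.94, beside 0.02 over all probes tested. In series A alone, both elaidic acid samples exceeded all 4 controls for SQLE, CYP51A1, TM7SF2, NSDHL, EBP, SC5DL and DHCR7, 7 of 11 probes against 7.17% of all, while a limma fit there called 0 probes. CYP51A1 passed with each single sample left out. SQLE did not pass without control replicate 1, 2 or 3, oleic replicate 2 or 3, elaidic replicate 1 or 3, or stearic replicate 1 or 4. NSDHL stayed past the threshold without oleic replicate 1 or 4 and was lost without any other 1 sample. SC5DL passed, at 1.54, without elaidic replicate 2. Over these fits, the calls over all probes ranged from 24 to 113, against 74 with all samples.

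Values for other marker lists in the same samples follow. The mean log2 level of 9 hepatocyte markers was 10.77 to 11.84 in control samples, 10.67 to 11.67 with oleic acid, 12.14 to 12.95 with elaidic acid and 12.56 to 12.76 with stearic acid. Of these 9, all had a difference above 0 for elaidic acid against control, with a median of 0.92, and 1 of them, TTR, passed the test. With slide series as a block all 9 stayed above 0, with a median of 0.70, beside 0.94 for the 10 sterol genes. Over 7 common reference genes the mean was 6.06 to 7.14 in controls, 6.13 to 6.62 with oleic acid, 6.57 to 7.95 with elaidic acid and 7.61 to 8.20 with stearic acid, with a median difference of 0.62 for elaidic acid against control and 0.07 with the block. Over 10 markers of other cells it was 6.75 to 7.16, 6.94 to 7.30, 6.31 to 6.99 and 6.65 to 6.82 in the same order of groups. For stearic acid against control the median was 1.09 for the hepatocyte markers, 1.40 for the reference genes and -0.54 for the markers of other cells. It was 1.02 for the sterol genes. With the block these medians were 0.44, -0.03, -0.01 and 0.32 in the same order of lists. The part of these shifts in the sterol enzyme results was not tested. In RNA from whole cultures, a change in the RNA of each cell and a change in the mix of cells cannot be told apart.

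Oleic acid against control asked what the cis acid did by itself. All 10 genes, with the brighter probe standing for CYP51A1, were lower on average, by 0.18 to 0.79 on the log2 scale, but none passed by limma. Nor did any probe of the array (0 of 11 members; background 0%; 0 members and 2.62% of all probes at an unadjusted p under 0.05). The largest differences were -0.79 ± 0.65 (SE, log2) for FDFT1, -0.61 ± 0.29 for SC5DL, with an interval of -1.23 to 0.01, and -0.52 ± 0.32 for SC4MOL. EBP differed by -0.46 ± 0.22, with an interval of -0.92 to 0.00. The interval of CYP51A1 (PH_hs_0033255) was -0.64 to 0.25. The second CYP51A1 probe went the other way, at 0.36 ± 0.34, so 10 of 11 probes had a difference below 0. The 2 groups overlapped for all 11 probes, as they did for all but 1.23% of the array, and 48.1% of all probes had a difference below 0. Both groups lie in series A, so the block leaves the differences as they are, and with it the interval of SC5DL was -1.19 to -0.04 at an adjusted p of 1.00. DHCR7 turned from -0.31 to 0.16 without oleic replicate 4, 1 of the 2 dimmest arrays.

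Stearic acid against control asked the same of the saturated acid. The limma fit without a block called 7 of 11 probes higher, where 29.8% of all probes passed and 15% passed as higher. They were FDFT1 (4.43-fold), DHCR7 (2.61-fold), SQLE (2.43-fold), CYP51A1 (PH_hs_0033255, 2.42-fold), EBP (2.04-fold), SC5DL (2.01-fold) and SC4MOL (1.96-fold). Their log2 differences were 2.15 ± 0.65 (SE; adjusted p = 0.024) for FDFT1, 1.38 ± 0.49 (adjusted p = 0.045) for DHCR7, 1.28 ± 0.26 (adjusted p = 0.0037) for SQLE, 1.28 ± 0.21 (adjusted p = 0.0014) for CYP51A1, 1.03 ± 0.22 (adjusted p = 0.0050) for EBP, 1.01 ± 0.29 (adjusted p = 0.021) for SC5DL and 0.97 ± 0.32 (adjusted p = 0.034) for SC4MOL. TM7SF2 (0.34 ± 0.22), NSDHL (0.37 ± 0.21) and HSD17B7 (0.48 ± 0.31) did not pass. The second CYP51A1 probe differed by -0.90 ± 0.34 (adjusted p = 0.056).

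None of these calls held with slide series in the fit: 0 of 11 probes passed, as did 0% of all probes (2 of 11 and 7.45% at an unadjusted p under 0.05). FDFT1 then stood at -0.09 ± 0.90 (SE, log2), DHCR7 at 0.27 ± 0.80, SQLE at 0.56 ± 0.38 and SC5DL at 0.35 ± 0.47. EBP, at 0.96 ± 0.37 (interval 0.16 to 1.76), and CYP51A1, at 0.81 ± 0.32 (0.12 to 1.51), were the members whose intervals stayed above 0 (limma adjusted p = 0.54 and 0.55). HSD17B7 changed sign, from 0.48 to -0.43. Without the block, the count of calls fell to 4 without control replicate 1, stearic replicate 3 or stearic replicate 4 and to 3 without control replicate 3 or stearic replicate 1, while the calls over all probes went from 6825 to between 3507 and 4425 in these 5 fits. The members lost there were among FDFT1, SC4MOL, SC5DL and DHCR7. DHCR7 was also lost without oleic replicate 2 or 3, elaidic replicate 3 or stearic replicate 2, and SC4MOL without control replicate 4. The second CYP51A1 probe passed as lower without control replicate 4, elaidic replicate 1 or stearic replicate 2.

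**Figure D3:**
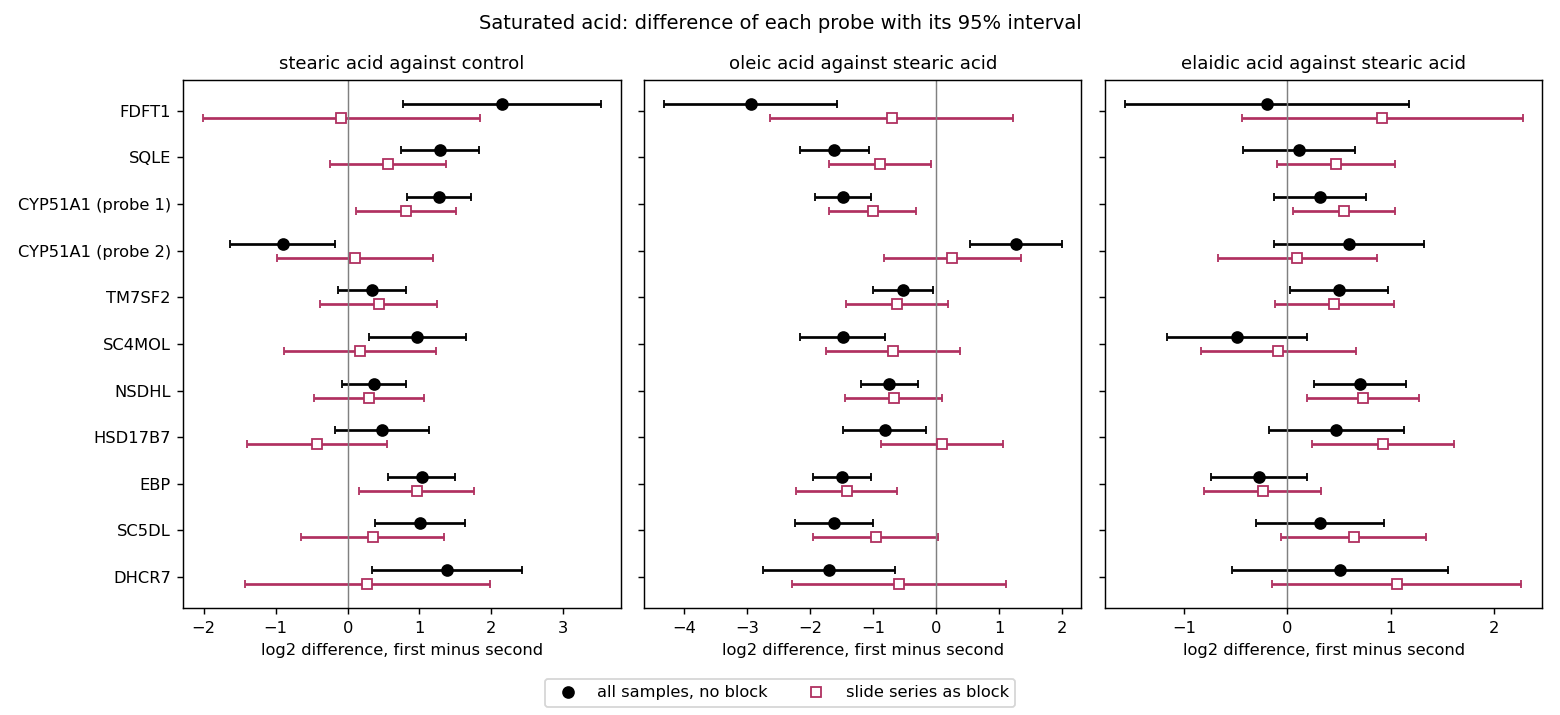
Log2 difference (horizontal axis) of each probe with its 95% interval for stearic acid against control, oleic against stearic acid and elaidic against stearic acid; filled circles are all 16 samples without a block and open squares have slide series as a block. FDFT1 against control goes from 2.15 to -0.09 with the block, while EBP goes from 1.03 to 0.96.

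Oleic against stearic acid compared the cis acid with the saturated one, again across slide series. Without a block 10 of 11 probes passed by limma, 9 lower with oleic acid and the second CYP51A1 probe higher, where 39.5% of all probes passed and 18.4% passed as lower. The differences of the 9 ran from -2.94 ± 0.65 (SE, log2; adjusted p = 0.0051) for FDFT1 to -0.74 ± 0.21 (adjusted p = 0.016) for NSDHL. TM7SF2, at -0.53 ± 0.22 (adjusted p = 0.068), did not pass, but passed at -0.73 without oleic replicate 1. HSD17B7, at -0.81 ± 0.31 (adjusted p = 0.047), was lost without control replicate 2 or 3, oleic replicate 2, 3 or 4, elaidic replicate 2 or 3, or any 1 stearic acid sample, DHCR7 without oleic replicate 4 and NSDHL without stearic replicate 1. With the block 0 of 11 probes passed (background 0%; 3 of 11 and 6.6% at an unadjusted p under 0.05). EBP was then at -1.42 ± 0.37 (SE; interval -2.22 to -0.62), CYP51A1 at -1.01 ± 0.32 (-1.70 to -0.31) and SQLE at -0.89 ± 0.38 (-1.70 to -0.09).

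Elaidic against stearic acid compared a trans with a saturated acid, with 2 elaidic acid samples on the same slide series as all stearic acid samples. No member passed by limma (0 of 11; background 0.397%; 2 of 11 and 14.5% at an unadjusted p under 0.05). The difference was 0.70 ± 0.21 (SE, log2; interval 0.25 to 1.15; adjusted p = 0.15) for NSDHL and 0.50 ± 0.22 (0.03 to 0.97; adjusted p = 0.32) for TM7SF2. For these 2 genes every elaidic acid sample was above every stearic acid sample, as for 4.72% of all probes. Groups did not overlap, in either direction, for 11.9% of all probes. SQLE differed by 0.11, with an interval of -0.43 to 0.65, and CYP51A1 by 0.31, with an interval of -0.13 to 0.76. EBP and FDFT1 differed by -0.28 (-0.74 to 0.19) and -0.20 (-1.57 to 1.17). These intervals do not show that the 2 acids act alike.

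With the block, which sets stearic acid against the elaidic acid samples of series B, none passed (background 0.00436%; 3 of 11 and 5.82% at an unadjusted p under 0.05). NSDHL stayed at 0.73 ± 0.25 (SE, log2; interval 0.19 to 1.28), HSD17B7 went to 0.93 ± 0.32 (0.24 to 1.61) and CYP51A1 to 0.55 ± 0.23 (0.06 to 1.04), with limma adjusted p-values of 0.57, 0.57 and 0.76. DHCR7 was at 1.06 (-0.15 to 2.27) and FDFT1 at 0.92 (-0.44 to 2.28). Within series B both elaidic acid samples were above all 4 stearic acid samples for 8 of 11 probes, against 11.1% of all probes, and below them for 0 of 11, against 12.3%. The 6 comparisons share their groups, so their differences are not independent of each other.

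Only the elaidic acid group has samples on both slide series, so the block rests on the difference between its 2 series B and 2 series A cultures, and a difference of series cannot be told apart from one of these cultures. Between these samples FDFT1 differed by 2.23 ± 0.73 (SE, log2; limma adjusted p = 0.087), DHCR7 by 1.11 ± 0.65, HSD17B7 by 0.91 ± 0.37, SC4MOL by 0.80 ± 0.40, SQLE by 0.72 ± 0.31, SC5DL by 0.66 ± 0.38 and CYP51A1 by 0.46 ± 0.26. The second CYP51A1 probe differed by -1.01 ± 0.42. NSDHL, EBP and TM7SF2 differed by 0.07 ± 0.29, 0.07 ± 0.30 and -0.09 ± 0.31, and their differences from control were nearly the same with and without the block. No member passed this test (0 of 11; background 4.05%; 4 of 11 and 28% at an unadjusted p under 0.05). Both series B samples were above both series A samples for 7 of 11 probes, against 30.4% of all probes.

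**Figure D4:**
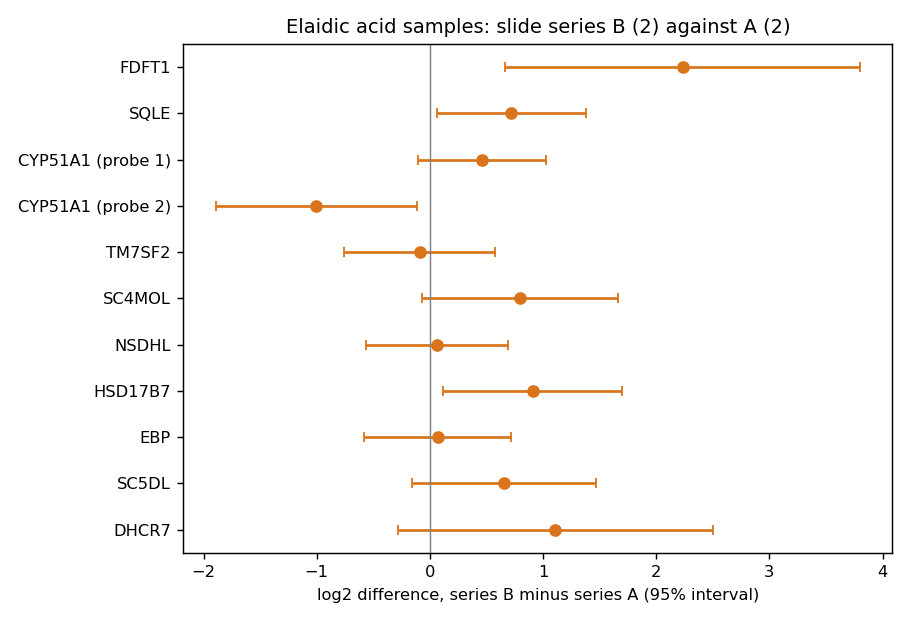
Log2 difference (horizontal axis) between the elaidic acid samples of slide series B and those of series A for each probe, 2 samples each, with the 95% interval. FDFT1 is farthest from 0 at 2.23, NSDHL, EBP and TM7SF2 lie within 0.09 of 0, and CYP51A1 probe 2 (PH_hs_0028379) is at -1.01.

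Enzymes ahead of squalene were read from a separate list. Of 10 listed genes of the mevalonate and isoprenoid arm 6 were tested. All 6 were above 0 for elaidic acid against control and below 0 for oleic acid against control, with medians of 0.60 and -0.23, and none passed by limma in either. MVK, mevalonate kinase, differed by 0.94 ± 0.23 (SE, log2; adjusted p = 0.11) with elaidic acid, IDI1, an isoprenoid isomerase, by 1.24 ± 0.45 (adjusted p = 0.25) and ACAT2, an acetoacetyl-CoA thiolase, by 0.85 ± 0.25 (adjusted p = 0.17). MVD, mevalonate diphosphate decarboxylase, differed by 0.35 ± 0.27. After squalene, LBR, a nuclear envelope protein that also reduces sterol C14, differed by 1.70 ± 0.59 (adjusted p = 0.23) and by 0.55 with the block, and C14orf1, a scaffold protein, by 0.05 ± 0.52.

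Regulators and transporters of sterol had differences on both sides of 0. Of 12 listed genes of sterol sensing and uptake 8 were tested, with 0 called by limma for elaidic acid against control and a median of 0.18 (-0.23 with the block). SREBF2, which encodes SREBP-2, differed by 1.40 ± 0.38 (SE, log2; adjusted p = 0.13) and by 0.97 with the block. NPC2, a lysosomal cholesterol carrier, differed by 1.68 ± 0.51 (adjusted p = 0.18), SCAP, the sterol-sensing escort of SREBP, by -0.71 ± 0.26 (adjusted p = 0.26) and MBTPS2, a protease that cuts SREBP, by -0.65 ± 0.49 (adjusted p = 0.52). INSIG1 and NPC1 did not pass the filter on low values. Of 7 sterol efflux and liver X receptor targets 4 were tested, 2 above and 2 below 0, and none passed. They were MYLIP at 0.45, ABCA1 at 0.62, ABCG5 at -0.24 and NR1H3 at -0.29.

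**Figure D5:**
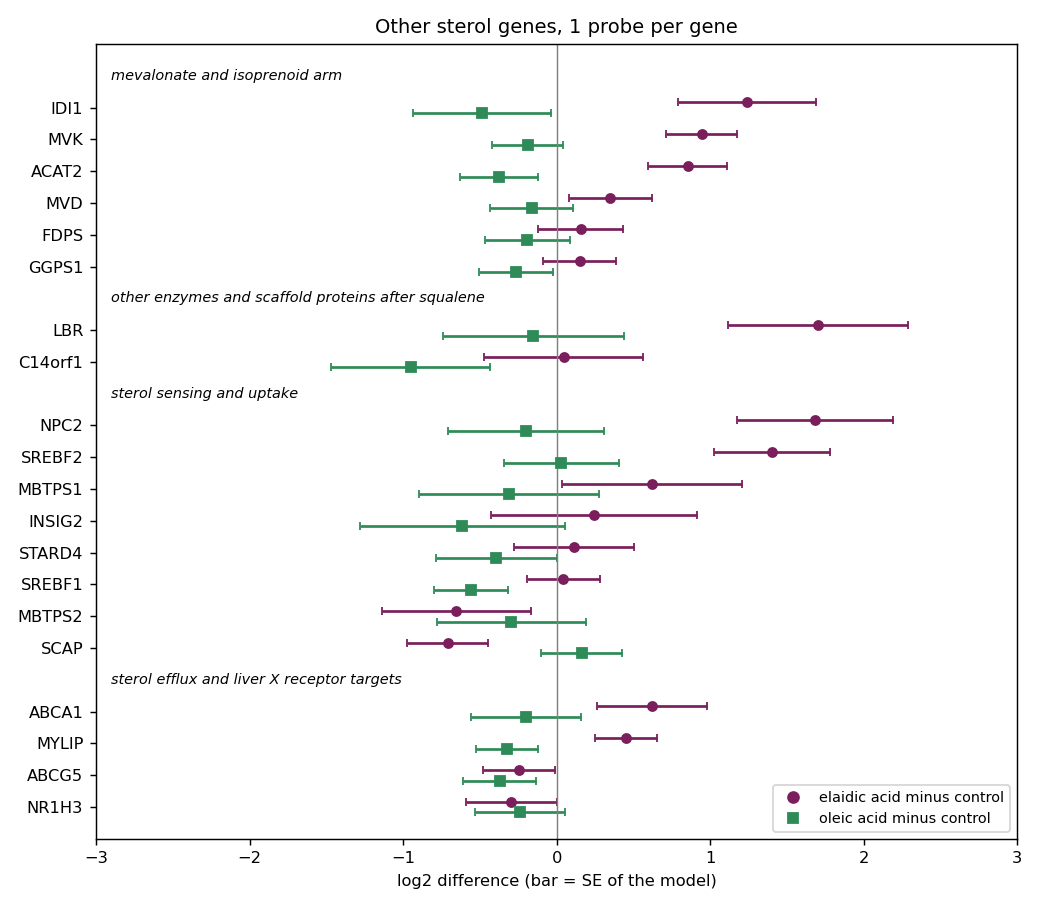
Log2 difference from control (horizontal axis, bars are SE) of the tested genes of 4 other sterol lists, circles for elaidic acid and squares for oleic acid, 1 probe per gene. All 6 mevalonate genes have the circle above 0 and the square below 0, while the sterol sensing genes lie on both sides; no gene shown passed the test in either comparison.

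Among the 10 genes, profiles over the 16 samples were near to each other for some and not for others. The root mean square distance from the mean of the members, each centred on its own mean, was 0.22 on the log2 scale for CYP51A1 (PH_hs_0033255) and SC5DL and 0.23 for SQLE. It was 0.33 for HSD17B7, 0.35 for EBP, 0.40 for NSDHL, 0.45 for TM7SF2, 0.46 for SC4MOL, 0.50 for DHCR7 and 0.89 for FDFT1, and 1.28 for the second CYP51A1 probe. The members themselves form this mean, so their nearness to it is in part built in. The median distance over all probes with 1 symbol, members included, was 0.91. Outside the list, 13442 such probes were compared. The nearest 8 genes were GNE (0.19), an enzyme of sialic acid synthesis, PGRMC1 (0.23), a haem-binding membrane protein, TRIB3 (0.24), a stress-induced pseudokinase, MOSC1 (0.25), AIFM2 (0.27), an oxidoreductase, LIPA (0.27), the lysosomal acid lipase that frees cholesterol from its esters, TINAG (0.28) and APOA4 (0.28), an apolipoprotein. Since these genes were chosen for a profile that is itself higher with elaidic acid, their differences from control are a description: 1.57 on the log2 scale for LIPA, 1.45 for PGRMC1 and 1.31 for TRIB3. The points of these profiles share arrays, groups and slide series.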

How the data were processed

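Total RNA of 16 cultures was amplified and labelled with Cy5, per the labels' protocols. Linear intensity was deposited, 1 value per probe and sample; how the authors subtracted background and combined the technical arrays is not given in the sources used here. Probes were named from the platform's annotation, which gave a symbol for 17397 probes and none for 13571. Of 30968 probes, 8029 had a sample at or below 0 and were dropped. The rest were log2-transformed, quantile normalised and fitted with limma 3.58.1 in R 4.3.3, with 4 group means and 1 spread over all 16 samples. Tests were two-sided with Benjamini-Hochberg adjustment per comparison, called at an adjusted p under 0.05. The number of arrays limits the precision. Where a gene had several probes, the brighter stood for it in medians. All members were named, with up to 4 genes of smallest p per other list and the 8 genes of nearest profile. The members and lists were chosen with earlier results of these data known. Deviations of same-numbered samples from their group means had correlations of -0.46 to 0.36 (7 of 24 pairs over 0.1), and numbers were not used as pairs. Elaidic acid replicates alternate between slide series, so for that group this check cannot tell whether samples were paired. The fit was also run on simulated data with known changes. These had no shift between slide series and no dim arrays, so that run does not bear on either.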

Additional observations from a re-analysis of the deposited data

How the results depend on the processing

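The differences of the 11 probes kept their direction under most alternatives. Of the single-probe results 1717 kept direction and call, 154 lost a call, 55 gained one and 20 turned. Part of this was fixed in advance. The intensity trend, the adjustment over all 6 comparisons, the omission of dim probes and the replicate block cannot change a difference. Leaving out a sample of a group outside the comparison changes it only through the probe filter and the normalisation. For elaidic acid against control, where 3 member probes passed, the count was 0 with no scaling between arrays, with only the 2 groups compared, with slide series as a block and with series A alone. It was 1 with median scaling, a floor of 1, and the 2 dimmest arrays left aside, 5 with an offset of 50, 7 with adjustment over all 6 comparisons and 9 with array weights. Over all probes 74 passed, and these settings gave, in the same order, 0, 0, 9 and 0, then 63, 38 and 33, then 218, 521 and 4656. Leaving out single samples gave 1 to 3. For elaidic against oleic acid, where 5 passed, it was 0 with no scaling, with only the 2 groups and with series A alone, 1 with slide series as a block, 8 with the dimmest 50% of probes left out or an intensity trend, 9 with adjustment over all 6 and 11 with array weights, and 1 to 8 without single samples. Over all probes 73 passed, against 2, 0 and 0, then 5, 180, 126, 571 and 8953, and 3 to 175 without single samples. With the replicate number as a block, 1 member probe passed in each of these comparisons, beside 28 and 4 over all probes. For stearic acid against control, where 7 passed, the member count was 4 with adjustment over all 6 or without the 2 dimmest arrays. It was 0 with slide series as a block, and 3 to 8 without single samples. Over all probes 6825 passed, against 3998, 4452 and 0, and 3507 to 8206 without single samples. For oleic against stearic acid, where 10 passed, the member count was 0 with slide series as a block and 8 to 11 without single samples. Over all probes 9057 passed, against 0 with the block and 4750 to 9980 without single samples. For elaidic against stearic acid, where 0 passed, the member count was 1 with an offset of 50 or array weights and 0 to 0 without single samples. For oleic acid against control it was 0 to 0. Over all probes 91 passed for elaidic against stearic acid, against 582 with the offset, 1030 with array weights and 0 to 157 without single samples.

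The median over the genes, for stearic acid against control, was 1.64 with no scaling and 0.32 with slide series as a block. For elaidic against stearic acid it was -0.18 with no scaling, and for oleic against stearic acid -2.19 with no scaling and -0.70 with the block. Leaving out single samples gave medians of 1.11 to 1.31 for elaidic acid and -0.48 to -0.26 for oleic acid against control, 0.96 to 1.16 for stearic acid against control, 1.502 to 1.67 for elaidic against oleic, 0.17 to 0.43 for elaidic against stearic and -1.61 to -1.39 for oleic against stearic acid. Without scaling, the median over all probes was 0.26 for stearic acid against control (-0.18 with quantile scaling) and -0.39 for oleic against stearic acid (0.21).

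Signs turned as follows. CYP51A1 PH_hs_0028379 went to 0.20 (slide series block) and 0.19 (series A alone) for elaidic acid and to 0.10 (block) for stearic acid against control. DHCR7 went to 0.16 for oleic acid against control without oleic replicate 4, in a range from -0.76 without single samples. FDFT1 went to -0.086 and HSD17B7 to -0.43 with the block for stearic acid against control, and HSD17B7 to 0.092 with it for oleic against stearic acid. For elaidic against stearic acid with no scaling, SQLE went to -0.33, CYP51A1 PH_hs_0033255 to -0.18, TM7SF2 to -0.018, SC5DL to -0.18 and DHCR7 to -0.015. There SQLE also went to -0.0019 with median scaling, -0.032 without elaidic replicate 1 and -0.02 without stearic replicate 2 (up to 0.30 without other single samples), and FDFT1 to 0.55 with array weights, 0.92 with the block, 0.91 in series B alone, 0.16 without elaidic replicate 2 and 0.18 without elaidic replicate 4 (down to -0.65 without other single samples). The cause of these changes was not tested. The fits on single series and without the 2 dimmest arrays were added after seeing the data.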
